A study of Mus musculus with 4 samples.

Results

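The nuclear genes of oxidative phosphorylation were followed in 1° mouse oligodendroglial cells (OGCs) with and without the transcription factor Zfp276. Members were chosen by symbol alone: all listed genes whose symbol begins with Uqcr, Cox4 to Cox8 or Atp5, or with Nduf followed by a, b, c, s or v and a digit, and Sdha, Sdhb, Sdhc and Sdhd, without entries marked -ps as pseudogenes. This gave 83 of 53465 listed genes. By role, 35 of them encode subunits of complex I, 4 of complex II, 8 of complex III, 18 of complex IV and 15 of complex V, and 3 encode related proteins (Ndufa4l2, Cox7a2l and Atp5s). Ndufa4 was placed with complex IV, where its protein is found.

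Oxidative phosphorylation takes place at the inner mitochondrial membrane. Complexes I and II feed electrons from NADH and succinate into the respiratory chain, complex III passes them to cytochrome c, complex IV hands them to oxygen, and complex V, the ATP synthase, uses the resulting proton gradient to make ATP. Most subunits are encoded in the nucleus and the others in mitochondrial DNA. In the oligodendrocyte (OL) lineage, differentiating cells that synthesize myelin have a high demand for energy, and mature OLs are known to rely strongly on glycolysis.

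The cells were shaken off from mixed glial cultures of P2-P4 mouse forebrain, depleted of microglia and differentiated for 3 days (3ddiff). The 2 ctrl libraries carried Zfp276 fl/fl, and the 2 Zfp276cko libraries carried Zfp276 fl/fl together with a Sox10::Cre BAC transgene, which acts in OGCs once they are OPCs and deletes exons 2 to 5. Per the study's methods, the strain background was mixed (C3H and C57Bl/6J), each library was an independent preparation pooled from 3 mice, and a Cre-dependent tdTomato reporter at Rosa26 was crossed in to find Zfp276cko newborns. As ctrl cells lacked Cre, the loss of Zfp276 and the presence of Cre cannot be told apart, and the study describes recombination as incomplete.

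Reads counted on genes came to 21311469 and 21068322 (ctrl replicates 1 and 2) and to 25265366 and 26599809 (Zfp276cko replicates 1 and 2). Zfp276 had normalized counts (counts scaled to the mean effective library size) of 1648 and 2230 in ctrl against 490 and 503 in Zfp276cko cells, that is 25.6% of ctrl, and these counts include exons that remain after recombination. Its log2 fold change (Zfp276cko over ctrl throughout) was −1.97 ± 0.18 (SE), with an adjusted p of 0.0962 by edgeR's quasi-likelihood test and of 1.17e-14 by DESeq2. The ctrl libraries differed far more from each other than the Zfp276cko libraries, with biological coefficients of variation of 0.354 and 0.0480. This spread limits every test below.

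The cultures held markers of several cell types. Of 10 markers of oligodendroglia, 9 did not overlap between genotypes and were lower in Zfp276cko. This pattern was also found in 23.7% of the 15766 genes tested, and in 37.0% of the 5712 that averaged 1000 normalized counts or more. The reverse pattern, without overlap and higher in Zfp276cko, was found in 26.8% of the genes tested. The normalized counts of all 10 markers summed to 341969 and 452955 in ctrl against 230191 and 233830 in Zfp276cko cells. Sox10, their pan-oligodendroglial member, had a log2 fold change of −0.09. Summed counts of 3 OPC markers were 50179 and 52954 in ctrl against 43684 and 43585 in Zfp276cko cells. For microglia (10 markers) the sums were 48380 and 25554 against 34895 and 36522, for astrocytes (8 markers) 34830 and 21903 against 29291 and 27503, and for neurons (8 markers) 14847 and 22847 against 13613 and 15267. Among microglial markers 2 were above and 0 below both ctrl libraries. By log2 fold change 6 were above 0 and 4 below, from −1.12 (Csf1r) to 0.76 (Ptprc). Ptprc was at 3018 and 3101 in ctrl against 5092 and 5264 in Zfp276cko cells, and was called by DESeq2 but not by edgeR. Of tested astrocyte markers 1 was below and 2 were above both ctrl libraries, and of tested neuronal markers 2 were below. Genes of fibroblasts and vessels (8 markers) summed to 8110 in ctrl replicate 1 and to 264, 385 and 350 in the other libraries. Gjb6 and Cldn5, listed for astrocytes and vessels, were at 0 counts in all 4 libraries. The other 7 markers of each of these lists had counts in every library. Gfap was at 17641 and 8463 in ctrl against 12993 and 12248 in Zfp276cko cells. Pecam1, a marker of endothelium, was at 106 and 93.4 in ctrl against 153 and 161 in Zfp276cko cells. The part of these cell types in the values below was not tested.

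Most nuclear genes of oxidative phosphorylation were slightly lower in Zfp276cko cells. Of the members, 79 passed the filter on low counts and were tested, and 70 of these had a log2 fold change below 0, compared with 50.1% of the 15766 tested genes. Their median was −0.22, which corresponds to 85.8% of ctrl, whereas the median over all tested genes was −0.00. In 55 of the 79 members both Zfp276cko libraries were below both ctrl libraries, and in 3 both were above. Over all tested genes these shares were 23.7% and 26.8%. In bulk samples, fewer cells of a type and less RNA per cell cannot be told apart.

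No single member was called by the quasi-likelihood test. The thresholds of a call were 0.05 for the adjusted p, 0.6 for the size of the log2 fold change and 20 for the mean normalized count. It called 0 members and 0.0% of all tested genes, and the lowest adjusted p of a member was 0.134. At an unadjusted p of at most 0.05, 21 members were lower and 1 was higher, and all tested genes passed in shares of 7.3% lower and 8.33% higher. DESeq2 called 0 members lower and 1, Cox6b2, higher, compared with 2.27% and 3.02% of the genes to which it gave an adjusted p. Without the threshold on fold change, 2 members were lower (Ndufb11 and Uqcrh) and 1 was higher by DESeq2, compared with shares of 2.8% and 3.23%.

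**Figure D1:**
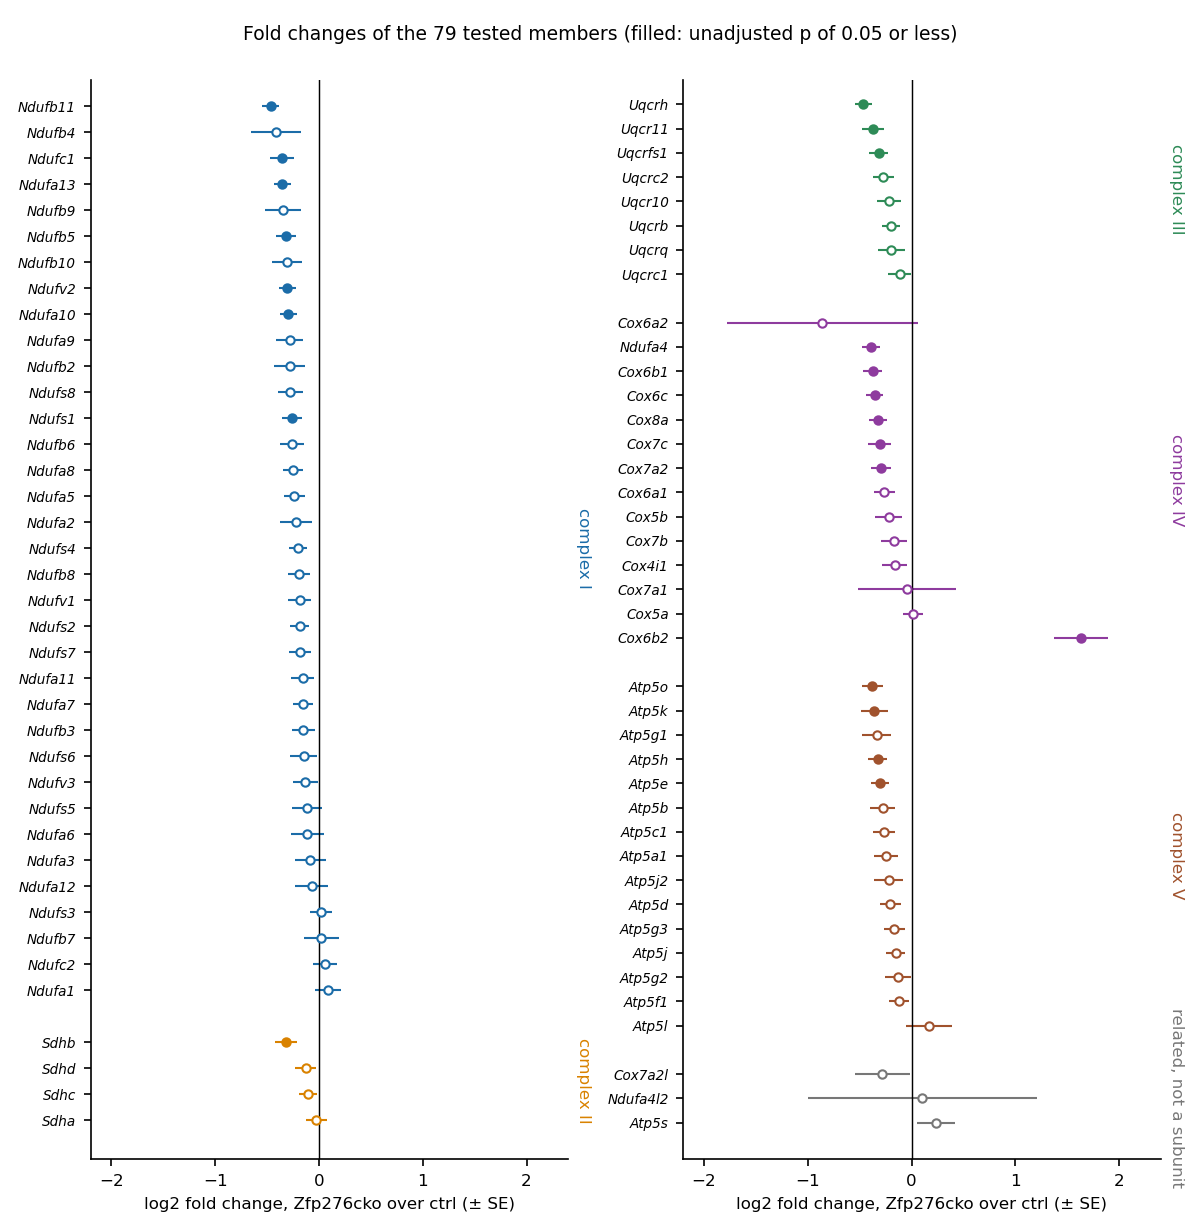
Each of the 79 tested members is plotted as its log2 fold change (Zfp276cko over ctrl, x axis) with its standard error, grouped by complex, and filled points mark an unadjusted p of at most 0.05. Most points lie between −0.5 and 0, Cox6b2 lies at 1.63, and Cox6a2 and Ndufa4l2 have the widest bars.

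Members are abundant genes, and abundant genes as a whole lay somewhat lower in Zfp276cko cells. Among the 5712 tested genes whose mean normalized count reached 1000, the median log2 fold change was −0.08, 37.0% had both Zfp276cko libraries below ctrl, and 12.7% were lower at an unadjusted p of at most 0.05. Of the 62 members at this level, 47 were below both ctrl libraries and 20 were lower at this p, and their median was −0.23. A group of 272 other abundant genes with transcripts of at most 1000 bases, chosen after the values were seen because members are short (a median of 737 bases against 2708 for tested genes), had a median of −0.14, and 105 of them were below both ctrl libraries.

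**Figure D2:**
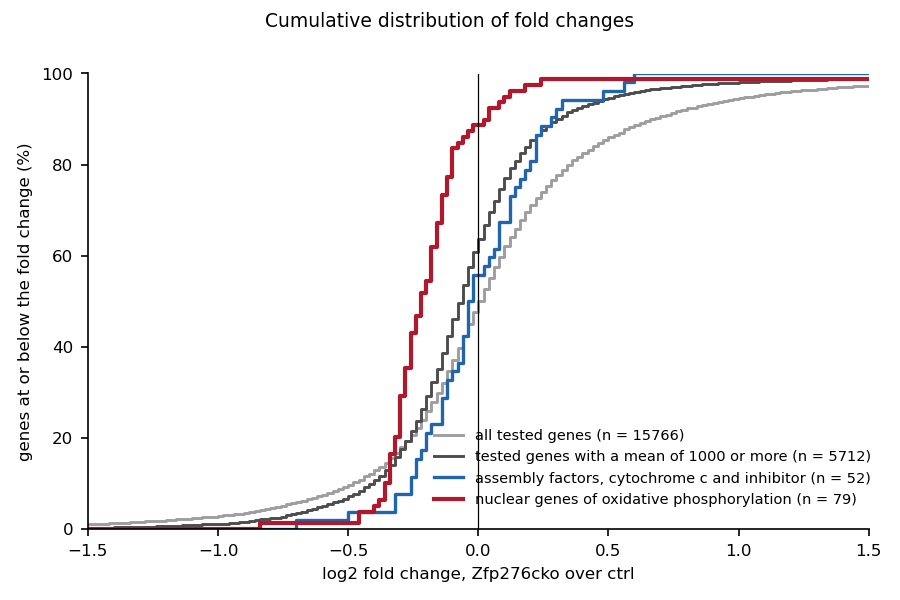
The cumulative share of genes (y axis, %) is plotted against the log2 fold change (x axis) for the 79 tested members, all 15766 tested genes, the 5712 genes with a mean of at least 1000 and the 52 genes of the assembly lists, which include cytochrome c, the inhibitor and 3 subunits. The curve of the members is steepest around its median of −0.22 with 70 of 79 members below 0, where the curve of all tested genes stands at 50.1%.

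Members differed little between the ctrl replicates. Their normalized counts were a median of 1.07-fold apart, compared with 1.25-fold for all tested genes and 1.16-fold for those with a mean of at least 1000. Only 2 of 79 members (Cox6a2 and Ndufa4l2) were at least 2-fold apart. Between the Zfp276cko replicates the members shifted together, as 62 of 79 were lower in replicate 2 than in replicate 1, with a median log2 difference of −0.08. The summed counts of the members took 0.852% and 0.909% of the ctrl libraries and 0.826% and 0.779% of the Zfp276cko libraries.

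The scaling of the libraries matters for a shift of this size. With library totals in place of TMM factors, the median of the members was −0.13 and that of all tested genes 0.10, so that the distance between them stayed at −0.22. By these totals 34 members were below both ctrl libraries, compared with 14.9% of all tested genes, and 5 members were lower at an unadjusted p of at most 0.05, compared with 4.19%.

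**Figure D3:**
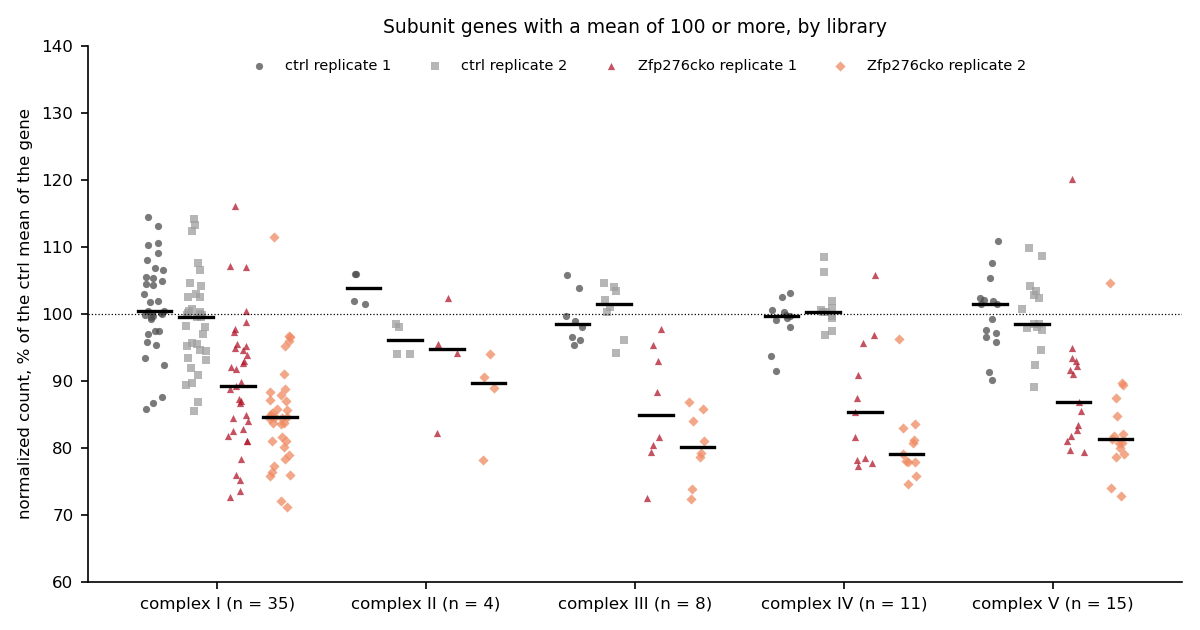
Each point is a subunit gene with a mean of at least 100 (73 genes), plotted as its normalized count in 1 library in percent of the ctrl mean of that gene (y axis, starting at 60%), and black bars are medians. Over all complexes the medians of replicates 1 and 2 lay at 100.2% and 99.8% for ctrl and at 88.4% and 83.0% for Zfp276cko.

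Complex I oxidizes NADH. It has core subunits, which carry its flavin and iron-sulfur clusters, and supernumerary subunits around them. All 35 genes were tested, 31 had a log2 fold change below 0, and the median was −0.20. Of 7 core genes, 6 were below both ctrl libraries (median −0.19), as were 19 of 28 supernumerary genes (median −0.21). Unadjusted p-values of at most 0.05 were obtained for 2 core genes, Ndufs1 and Ndufv2, and for 5 supernumerary genes, Ndufa10, Ndufa13, Ndufb5, Ndufb11 and Ndufc1. Core genes ranged from −0.30 (Ndufv2) to 0.02 (Ndufs3). Over all tested genes, 23.7% were below both ctrl libraries and 7.3% were lower at an unadjusted p of at most 0.05. Among those with a mean of at least 1000, these shares were 37.0% and 12.7%. The same shares apply to the counts given for the other complexes below.

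Ndufb11, a supernumerary subunit of the membrane arm, had the lowest log2 fold change within complex I. Its normalized counts were 2137 and 2128 in ctrl against 1550 and 1540 in Zfp276cko cells. Replicates of a genotype were nearly equal and the genotypes did not overlap. The log2 fold change was −0.47 ± 0.08 (SE), with an adjusted p of 0.150 by edgeR's quasi-likelihood test and of 0.0263 by DESeq2. Ndufb11 lies on chromosome X of mm10 from 20615326 to 20617619 and overlaps Rbm10 on the opposite strand. As the strand setting of the counting is not given in the sources used here, reads of both genes may not have been told apart.

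Other complex I genes varied less clearly with genotype. Ndufa1, the complex I gene with the highest log2 fold change, had normalized counts of 1418 and 1439 in ctrl against 1658 and 1382 in Zfp276cko cells. Its Zfp276cko replicates lay on either side of ctrl, and the log2 fold change was 0.09 ± 0.12 (SE), with an adjusted p of 0.771 by the quasi-likelihood test of edgeR. Ndufa7, the complex I gene with the highest level per length, was at 2219 and 1995 in ctrl against 1933 and 1863 in Zfp276cko cells (log2 fold change −0.15). Ndufb9 was the complex I gene farthest apart between ctrl replicates, with 1269 and 949 in ctrl against 907 and 841 in Zfp276cko cells (−0.34). In both genes the genotypes were separated by less than the distance between the ctrl replicates.

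Complex II, succinate dehydrogenase, is also an enzyme of the citric acid cycle, and all of its subunits are nuclear. Sdhb, the iron-sulfur subunit, had 4081 and 3626 normalized counts in ctrl against 3170 and 3016 in Zfp276cko cells. Both Zfp276cko libraries were below ctrl, with a log2 fold change of −0.32 ± 0.11 (SE) and an adjusted p of 0.294 by edgeR's quasi-likelihood test. Sdha, the flavoprotein subunit that forms the catalytic part together with Sdhb, was at 5982 and 5802 in ctrl against 6028 and 5541 in Zfp276cko cells. Its genotypes overlapped, and the log2 fold change was −0.03 ± 0.10 (SE).

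The membrane anchors of complex II lay in between. Sdhc had 2666 and 2565 normalized counts in ctrl against 2498 and 2369 in Zfp276cko cells, with a log2 fold change of −0.10. Sdhd had 2244 and 1991 in ctrl against 1993 and 1882 in Zfp276cko cells, with a log2 fold change of −0.13, and here replicate 2 of ctrl and replicate 1 of Zfp276cko were equal within 3 counts. Sdha and Sdhd thus overlapped between genotypes, and Sdhb and Sdhc did not.

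Complex III transfers electrons from ubiquinol to cytochrome c. All 8 genes had a log2 fold change below 0, 7 were below both ctrl libraries, and the median was −0.25. Uqcrh, the hinge subunit that lies next to cytochrome c1, was lowest, with 3928 and 4009 normalized counts in ctrl against 2883 and 2872 in Zfp276cko cells. The replicates of each genotype lay close together, and the log2 fold change was −0.46 ± 0.09 (SE), with an adjusted p of 0.162 by edgeR's quasi-likelihood test and of 0.0140 by DESeq2. The gene lies on chromosome 4 from 116066965 to 116075071 and overlaps the predicted gene Gm12854 on the opposite strand. Uqcr11 and Uqcrfs1, the Rieske iron-sulfur protein, also had unadjusted p-values of at most 0.05 (log2 fold changes −0.37 and −0.32).

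The core proteins of complex III were closer to ctrl. Uqcrc1 was at 3316 and 3589 in ctrl against 3375 and 2999 in Zfp276cko cells, so that the genotypes overlapped (log2 fold change −0.12). Uqcrc2 was at 4128 and 3675 in ctrl against 3185 and 3277 in Zfp276cko cells, without overlap (−0.27). Both proteins face the matrix and resemble processing peptidases.

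Complex IV, cytochrome c oxidase, had the widest range of values. Of its 18 nuclear genes 14 were tested, 12 had a log2 fold change below 0, 9 were below and 1 was above both ctrl libraries, and the median was −0.28. The genes Ndufa4, Cox6b1, Cox6c, Cox8a, Cox7c and Cox7a2 were lower at an unadjusted p of at most 0.05, with log2 fold changes from −0.40 to −0.29. Cox5a, a matrix-side subunit, was at 0.01.

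Ndufa4 had 3704 and 3686 normalized counts in ctrl against 2859 and 2760 in Zfp276cko cells. Cox6c, a small membrane subunit, had 2745 and 2775 in ctrl against 2167 and 2150 in Zfp276cko cells. In both genes the replicates were close and the genotypes stood apart, with log2 fold changes of −0.40 ± 0.09 (SE) and −0.35 ± 0.08 (SE) and adjusted p-values of 0.184 and 0.189 by edgeR's quasi-likelihood test. Cox4i1, the ubiquitous form of the largest nuclear subunit and the complex IV gene with the highest level per length, was at 7881 and 7487 in ctrl against 7347 and 6374 in Zfp276cko cells. Its log2 fold change was −0.16 ± 0.12 (SE), and its lowest ctrl and highest Zfp276cko library differed by less than the replicates did.

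Several complex IV subunits exist as a ubiquitous isoform and as an isoform known from certain tissues, such as heart and muscle or testis. The ubiquitous forms carried almost all counts here. Levels per length (normalized counts per kilobase of transcript) of Cox4i2, Cox6a2, Cox7a1 and Cox8b came to at most 1.33% of the sum with their partner in any library. Cox4i2, Cox7b2, Cox8b and Cox8c were not tested, with raw counts between 0 and 5 in every library. Cox8c was at 0 in all 4 libraries, where a count of 0 allows up to 0.142 CPM (3 counts, counting error only).

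Cox6b2, known as the isoform of Cox6b in testis, had the highest log2 fold change of the members, of which 9 were above 0. Its normalized counts were 36.8 and 36.01 in ctrl against 123 and 103 in Zfp276cko cells, from raw counts of 31, 32, 136 and 120. Both Zfp276cko libraries were thus above ctrl, with a log2 fold change of 1.63 ± 0.26 (SE). The adjusted p was 0.134 by edgeR's quasi-likelihood test, the lowest of all members, and 0.00629 by DESeq2. Cox6b2 lies on chromosome 7 of mm10 from 4751792 to 4753094 and shares no read-length stretch of its transcript with another annotated gene.

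The ubiquitous form Cox6b1 differed in the other direction. It had 5219 and 5243 normalized counts in ctrl against 4093 and 3968 in Zfp276cko cells (log2 fold change −0.38 ± 0.09, SE, adjusted p of 0.199 by edgeR's quasi-likelihood test). Per length, Cox6b2 made up 0.782% and 0.762% of the sum of both forms in ctrl and 3.25% and 2.82% in Zfp276cko cells. Even there, Cox6b1 held the vast majority of the Cox6b counts. Cox6b1 is named here in addition to the rule, as the partner of Cox6b2.

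The other isoform pairs showed no such separation. Cox6a2 was at 85.5 and 12.4 in ctrl against 25.3 and 28.4 in Zfp276cko cells, and its log2 fold change of −0.86 ± 0.92 (SE) turned to 1.11 without ctrl replicate 1. Cox7a1 was at 10.7 and 11.3 in ctrl against 13.6 and 7.7 in Zfp276cko cells. Genotypes overlapped in both genes.

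Their ubiquitous partners did not overlap. Cox6a1 was at 5337 and 5279 in ctrl against 4640 and 4198 in Zfp276cko cells (log2 fold change −0.26). Cox7a2 was at 2883 and 2899 against 2467 and 2253 (−0.29), and Cox8a was at 3707 and 3777 against 3057 and 2922 (−0.32). Ndufa4l2, a relative of Ndufa4 known as a target of hypoxia signaling, was at 13.1, 1.13, 10.9 and 4.30 in the 4 libraries in the same order, from at most 12 raw counts.

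Complex V consists of the catalytic F1 part, a stator that holds it and a ring of c subunits that turns in the membrane. Of 15 genes 14 had a log2 fold change below 0, 12 were below both ctrl libraries, and the median was −0.25. All 5 genes of F1 were below both ctrl libraries, from −0.31 (Atp5e) to −0.20 (Atp5d). Atp5b, the catalytic beta subunit and the member with the highest level per length, had 24788 and 26578 normalized counts in ctrl against 21428 and 20899 in Zfp276cko cells. The genotypes were apart, but the log2 fold change of −0.28 ± 0.12 (SE) had an unadjusted p of 0.0739 by edgeR's quasi-likelihood test.

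Among stator genes, Atp5o, which links F1 to the stator, was lowest within complex V. It had 3882 and 3770 normalized counts in ctrl against 3104 and 2788 in Zfp276cko cells, with a log2 fold change of −0.38 ± 0.10 (SE) and an adjusted p of 0.228 by edgeR's quasi-likelihood test. The genotypes were separate. GENCODE gives this symbol to more than 1 gene, so no position or length was used for it.

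The c subunit is encoded by Atp5g1, Atp5g2 and Atp5g3, whose mature proteins are identical. Atp5g1 was at 1629 and 1310 in ctrl against 1171 and 1156 in Zfp276cko cells (log2 fold change −0.34). Atp5g2 was at 890 and 765 in ctrl against 770 and 743 in Zfp276cko cells (−0.13), and Atp5g3 at 4605 and 4412 against 4211 and 3826 (−0.17). Per length, Atp5g3 made up between 59.6% and 63.2% of the 3 genes in every library, and Atp5g1 between 18.1% and 21.8%. All read-length stretches of the Atp5g2 transcript, and 48.1% of those of Atp5g1, also occur in predicted genes (Gm10175, Gm10231 and Gm10039), so that their counts of uniquely mapped reads are uncertain.

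Atp5l, a small membrane subunit, was the only complex V gene above 0. Its normalized counts were 101 and 97.9 in ctrl against 119 and 104 in Zfp276cko cells, with a log2 fold change of 0.17 ± 0.22 (SE). It was also the complex V gene with the lowest level per length, and 61.3% of its read-length stretches occur in other annotated genes. Of the related genes, Atp5s was at 216 and 189 in ctrl against 226 and 251 in Zfp276cko cells, above both ctrl libraries (0.24). Cox7a2l, a factor of supercomplex assembly, overlapped at 2499 and 1499 in ctrl against 1718 and 1571 in Zfp276cko cells (−0.28).

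Levels per length were unequal between and within complexes. Medians were 1451 normalized counts per kilobase in complex I, 1830 in complex II, 3226 in complex III, 4021 in complex IV and 3717 in complex V. The highest values were 12225 for Atp5b, 9762 for Cox4i1, 6258 for Uqcrh, 3793 for Ndufa7 and 3041 for Sdhb. Most complex I genes were close to each other, with quartiles of 1146 and 2072. Ndufb4 stood out at 130, and 33.3% of its read-length stretches are shared with Ndufb4c.

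**Figure D4:**
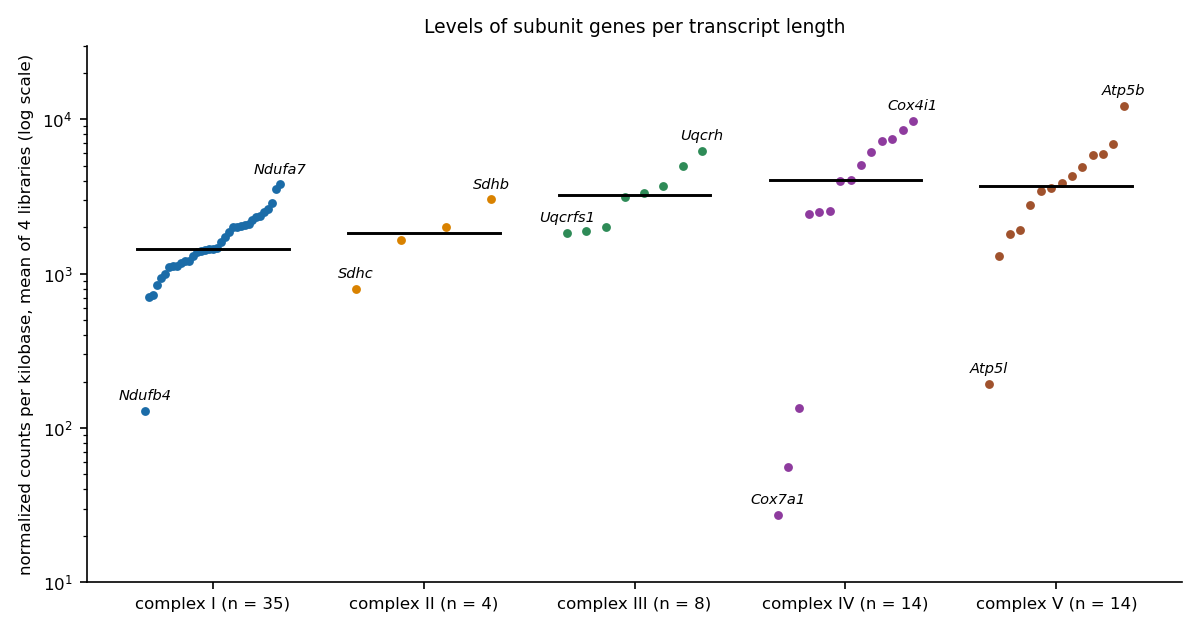
Mean levels over the 4 libraries, as normalized counts per kilobase of transcript (y axis, log scale), are plotted for the tested subunit genes with a known transcript, ordered within each complex, with bars at the medians. The highest and the lowest gene of each complex are named, and Cox7a1 at 27.5 and Atp5b at 12225 mark the extremes.

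Sharing of reads touched few members. Of 82 members with a transcript, 64 shared no stretch of read length (101 bases) with another annotated gene, and 6 (Atp5g1, Atp5g2, Atp5h, Atp5l, Cox7c and Ndufb4) shared more than 25%. Over the 60 tested members without sharing the median log2 fold change was −0.22, and 41 of them were below both ctrl libraries. Without the 28 members that overlap a gene on the opposite strand, the median over 50 tested members was again −0.22.

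The lists of assembly factors had medians closer to 0 than the members. Assembly factors insert cofactors and join subunits. Of 52 genes, most of them assembly factors, counted with cytochrome c, the inhibitor of complex V and the subunits Cyc1, Ndufab1 and Usmg5, whose symbols lie outside the rule, 10 were below and 14 above both ctrl libraries, and 29 had a log2 fold change below 0. The medians were −0.05 for 16 genes of complex I, 0.11 for 4 of complex II, −0.09 for 8 of complex III including cytochrome c, −0.05 for 19 of complex IV and −0.08 for 5 of complex V. Over all tested genes, 23.7% were below and 26.8% above both ctrl libraries. Most genes of these lists had fewer than 1000 normalized counts, unlike most members, and abundance was not matched. None of these lists was tested against the members.

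Single factors ranged widely. Ndufaf2 was the lowest factor of complex I, at 456 and 737 in ctrl against 342 and 389 in Zfp276cko cells (log2 fold change −0.71), and Tmem126b the highest (0.30). For complex II, Sdhaf1 was at −0.51 and Sdhaf4 at 0.21, for complex III Uqcc2 was at −0.32 and Lyrm7 at 0.55, and for complex IV Lrpprc was at −0.27 and Cox16 at 0.60. Atpif1, the inhibitor of complex V, was at −0.14 and Tmem70 at 0.22. Unadjusted p-values of at most 0.05 by edgeR's quasi-likelihood test were found for Uqcc2 among lower genes and for Uqcc1 and Coa5 among higher genes, the latter pair named after their values were seen.

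Electron carriers and subunits outside the symbol rule were lower by similar or smaller amounts. Cyc1, the cytochrome c1 of complex III, was at 2731 and 2562 in ctrl against 2335 and 2055 in Zfp276cko cells (log2 fold change −0.27), without overlap. Cycs, cytochrome c itself, was at 1008 and 1385 against 1027 and 1012 (−0.23), and Ndufab1, the acyl carrier protein of complex I, was at 942 and 856 against 853 and 906 (−0.03). Both overlapped between genotypes.

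Transcriptional regulators of respiratory genes lay on both sides of 0. Of 12 regulators 5 had a log2 fold change below 0, and the median was 0.04. Compared with 23.7% and 26.8% of all tested genes, 2 were below and 5 above both ctrl libraries. Ppargc1a, a coactivator of mitochondrial biogenesis, was at 150 and 178 in ctrl against 179 and 186 in Zfp276cko cells (0.16). Nrf1 and Gabpa, which bind many promoters of respiratory genes, were at −0.10 and 0.07, and Tfam, which maintains mitochondrial DNA, was at 0.11. The extremes were Ppargc1b (−0.49) and Tfb1m (0.46). Yy1 (−0.25) was lower and Esrra (0.33) higher at an unadjusted p of at most 0.05, and both are named after their values were seen.

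Genes that follow mitochondrial mass lay between members and assembly factors. Of 12 such genes, coding for import receptors, carriers, porins, citrate synthase and a chaperone, 11 had a log2 fold change below 0. The median was −0.12, and 7 were below both ctrl libraries. Over all tested genes this share was 23.7%, and it was 37.0% for those with a mean of at least 1000. The lowest was Slc25a4, the ADP/ATP carrier, at 10871 and 11463 in ctrl against 8963 and 9089 in Zfp276cko cells (−0.31). The highest was Tomm20, an import receptor, at 0.0054. Slc25a4 had an unadjusted p of 0.0375 by edgeR's quasi-likelihood test.

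Ribosomal protein genes, chosen after the values were seen as further short and coordinately used genes, gave a comparison. For 80 tested cytosolic ribosomal protein genes the median log2 fold change was −0.33 and 52 were below both ctrl libraries, but only 7 had an unadjusted p of at most 0.05 and a lower level. Their ctrl replicates were a median of 1.39-fold apart. For 77 mitochondrial ribosomal protein genes the median was −0.08, 35 were below both ctrl libraries and 6 were lower at this p. Of all tested genes, 23.7% were below both ctrl libraries and 7.3% were lower at this p. The 7 and 6 genes made up a similar 8.75% and 7.79% of their groups. No test of a difference between these groups and the members was made.

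Subunits encoded in mitochondrial DNA had larger differences and less even replicates. Of 13 such genes 7 were tested, with a median log2 fold change of −0.89, and 4 were below both ctrl libraries. Over all tested genes this share was 23.7%, and it was 37.0% for those with a mean of at least 1000. The 6 untested mitochondrial genes had at most 1 raw count in a library, whereas mt-Co1 had between 126913 and 296283. The cause of these low counts was not tested, and they are not taken as absence of the RNAs. The ctrl replicates were a median of 2.04-fold apart, with sums of 708292 and 363894 normalized counts in ctrl against 280379 and 297014 in Zfp276cko cells, so that ctrl replicate 2 lay nearer to Zfp276cko than to ctrl replicate 1. In the other direction, mt-Nd6 was at 324 and 158 in ctrl against 246 and 695 in Zfp276cko cells, with overlap (0.97). DESeq2 called 3 of the 7 lower (mt-Nd4, mt-Nd5 and mt-Cytb), compared with 2.27% of the genes to which it gave an adjusted p. With TMM factors, the summed nuclear genes had no such gap between ctrl replicates, at 215563 and 215525 normalized counts. The Zfp276cko sums were 188841 and 178033, which is 85.1% of ctrl. The near equality of the ctrl sums depends on this scaling. As a share of library counts, ctrl replicate 1 stood at 0.852% and ctrl replicate 2 at 0.909%. Zfp276cko replicate 1, at 0.826%, was then closer to ctrl replicate 1 than ctrl replicate 2 was, and Zfp276cko replicate 2 was at 0.779%.

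Promoters were examined because the members differed in the same direction. The table of RefSeq promoters used here (250 bases before to 50 after the start site, GRCm38.p6) covers 68 of the 83 members and 27025 genes in all. Of these members 66 were tested, but the genes in all were not limited to tested ones. Shares of members and of all genes are thus not matched for expression. On either strand, the letters CGCATGCG, bound by NRF1, occurred in 9 members (13.2%, against 2.07% of all genes), CCGGAAG, bound by ETS factors such as Gabpa, in 16 (23.5% against 9.93%), and AAGATGGCG, bound by YY1, in 7 (10.3% against 1.64%). AAAAGGGCT, the core letters that the study defined for Zfp276 from a site of Wnt7a, occurred in 0 of 68 members and in 0.414% of all genes. The study's consensus over all its sites is more variable, and those sites lie in regulatory regions such as distant enhancers. A search for these exact letters in promoters therefore cannot show whether members have Zfp276 sites. CGCATGCG reads the same on both strands, and the ETS and YY1 letters can overlap in AAG.

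These letters did not sort the members by size of the difference in a clear way. Median log2 fold changes of tested members with and without the letters were −0.16 (9 members) and −0.22 (57) for NRF1, −0.29 (16) and −0.20 (50) for ETS and −0.20 (7) and −0.24 (59) for YY1. Ndufb11, Cox6b2 and Ndufa4 have a promoter in this table that held none of the 4 motifs. A match is a run of letters and not a measured site.

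The windows below, each of 30 bases on the strand of the gene and from RefSeq, show the motifs in capitals for genes that the results turn on. Uqcrh, Sdhb, Cox6b1 and Cox8a were lower at an unadjusted p of at most 0.05 and hold the ETS letters, on the opposite strand in all but Sdhb. They are a selection from 16 members that hold these letters. Atp5l and Ndufs3, not shown, also hold them and had positive log2 fold changes (0.17 and 0.02). Atp5j holds the NRF1, ETS and YY1 letters in 1 promoter, and Cox6a1 holds the NRF1 letters.
Uqcrh, ETS, minus strand, chr4:116075062-116075091: agtatgccgcaCTTCCGGccaggtcgccgg
Sdhb, ETS, plus strand, chr4:140961266-140961295: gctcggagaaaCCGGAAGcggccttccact
Cox6b1, ETS, minus strand, chr7:30626124-30626153: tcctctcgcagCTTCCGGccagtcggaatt
Cox8a, ETS, minus strand, chr19:7217603-7217632: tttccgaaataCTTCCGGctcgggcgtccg
Atp5j, NRF1, minus strand, chr16:84835105-84835134: aggccagaataCGCATGCGtacagtgcagt
Atp5j, YY1, minus strand, chr16:84835045-84835074: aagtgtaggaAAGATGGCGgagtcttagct
Atp5j, ETS, minus strand, chr16:84835019-84835048: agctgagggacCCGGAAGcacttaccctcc
Cox6a1, NRF1, minus strand, chr5:115349101-115349130: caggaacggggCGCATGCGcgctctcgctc

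Atp5j, the coupling factor 6 of the stator, had 3077 and 2958 normalized counts in ctrl against 2784 and 2640 in Zfp276cko cells. Genotypes did not overlap, and the log2 fold change of −0.15 ± 0.09 (SE) was smaller in size than the median of the members. Atp5j was chosen for its 3 motifs, after its values were seen.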

How the data were processed

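RNA-Seq of 2 ctrl and 2 Zfp276cko preparations (stranded mRNA kit, single reads of 101 bases) was analysed from the whole-number counts per gene that the authors deposited, without normalization. The study's methods name STAR, HTSeq and Ensembl genes on mm10, and the submitters' processing notes list STAR 2.5.4a and featureCounts 1.5.1. The strand setting is not given in the sources used here. Members and gene lists were chosen with earlier results of these data known.

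Genes were filtered with filterByExpr and scaled with TMM factors (0.935 to 1.04) in edgeR 4.0.16 (R 4.3.3). The genotypes were compared over all 15766 tested genes with its quasi-likelihood test and Benjamini-Hochberg adjustment, and DESeq2 1.42.0 was an alternative. The code was tested on simulated counts. The level per length divides normalized counts by the length of the median principal GENCODE transcript (mm10). Named members were, per complex, those with the highest level per length, the lowest or highest fold change or the largest distance between ctrl replicates, further complex II, isoform pairs, untested members, DESeq2 calls and the 5 smallest p-values. From the other lists, the extremes and some preset genes were named. Alternatives were other scalings and filters, a replicate block, a GC and length correction, DESeq2 and leaving out each library. The number of libraries limits the precision of all values, and errors cover the spread between preparations.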

Additional observations from a re-analysis of the deposited data

How the results depend on the processing

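The median log2 fold change of the tested members stayed below 0 under all 12 alternatives. It was −0.35 with a correction for GC content and length, −0.35 with this correction and a replicate block and −0.13 with library totals (chosen after the data were seen), and between −0.28 and −0.17 when single libraries were left out. The other alternatives moved it by less than the spread between libraries (0.0419). Relative to all tested genes it lay between −0.27 and −0.16. The count of members with both Zfp276cko libraries below ctrl was 34 with library totals (14.9% of all tested genes), and 55 to 69 without single libraries, where the share of all genes was 29.7% to 42.6% against 23.7% with all libraries. By edgeR's quasi-likelihood test, 21 members were lower at an unadjusted p of at most 0.05. This count was 7 with the replicate block (4.8% of all tested genes), 43 with the GC and length correction (13.1%), 5 with library totals (4.19%), and 0 to 56 without single libraries (1.22% to 25.2%), compared with 7.3%. Members higher at this p numbered 0 to 3 without single libraries. Calls lower numbered 0 to 3 and calls higher 0 to 1 without single libraries, where the 3 lower calls came without ctrl replicate 2, beside 1286 of 16553 genes called lower, and DESeq2 made 1 higher call. Without ctrl replicate 1 or 2, 36 and 48 members were lower at an adjusted p of at most 0.05, and so were 17.7% and 22.0% of all tested genes. In these fits the spread came from the Zfp276cko libraries, and the lone ctrl library was assumed to vary likewise. The higher counts without single libraries are given without a share of all tested genes. No comparison of members with all genes is drawn from those higher counts. Deviations of same-numbered replicates were not correlated over genes (correlation −0.005). With 2 libraries a genotype and unequal spread, this cannot show whether the samples were paired. The replicate block left 0 calls.

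Of the 27 tested members named by rule, direction changed in 11 comparisons. Without single libraries, Cox6a2 lay between −1.68 and 1.11 (without ctrl replicate 1), Cox7a1 between −0.49 and 0.31 (without Zfp276cko replicate 2), Ndufa1 between −0.044 (without Zfp276cko replicate 1) and 0.22, Ndufa4l2 between −0.80 (without ctrl replicate 2) and 2.62, with −0.69 without Zfp276cko replicate 1, and Sdha between −0.084 and 0.035 (without Zfp276cko replicate 2). With library totals Cox7a1 was at 0.051 and Sdha at 0.073. With the GC and length correction Ndufa1 was at −0.010 and Ndufa4l2 at −0.018, and with this and the block Ndufa1 was at −0.014. The cause was not tested.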
